A study of Mus musculus with 24 samples.

Results

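The genes described here are 10 members of the tumour necrosis factor (TNF) family and its immediate signalling machinery: the ligands Tnf, Tnfsf9, Tnfsf10 and Tnfsf15, the receptors Tnfrsf1a, Tnfrsf1b, Cd40, Fas and Tnfrsf9, and the receptor-associated adaptor Traf1. They were taken by gene symbol, and each matched 1 gene ID among the 22996 genes of the table from bone marrow-derived macrophages and 1 among the 54380 genes of the table from the J774.1 macrophage line. All 10 are followed through 8 groups of 3 libraries. The study measured polyadenylated RNA by RNA-seq to ask how the transcriptional corepressors C-terminal binding protein 1 and 2 (CtBP1 and CtBP2) bear on inflammatory gene expression. Values are TPM, a relative transcript level scaled for transcript length and for the total of each library. TPM keeps no read depth, so the depth behind the values is unknown.

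Bone marrow-derived macrophages (BMDMs) came from male C57BL6/N mice aged 6 to 12 weeks and were differentiated to day 6 in medium with L929 cell supernatant. They carried control siRNA, Ctbp1 siRNA or Ctbp2 siRNA, and each of these was given either the vehicle PBS or lipopolysaccharide (LPS, the bacterial endotoxin sensed by Toll-like receptor 4) at 100 ng/ml for 4 h. J774.1, a female macrophage line of BALB/c origin, was either wildtype or carried a Ctbp1/2 double knockout. All 6 J774.1 libraries received LPS at 100 ng/ml for 4 h, so the line has no vehicle group. BMDM replicates are numbered 1, 3 and 4 in the sample titles and J774.1 replicates 1 to 3, and values below follow that order. The labels speak of biological triplicates but do not say whether these were separate mice or cultures, so p-values measure only the spread between these libraries. Whether each J774.1 genotype was 1 clone is not given in the sources used here. Other effects of an siRNA duplex cannot be told apart from loss of its target.

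TNF family ligands are mostly trimeric membrane proteins that can be shed from the cell. Their receptors include those with a death domain, such as TNFR1 (the product of Tnfrsf1a) and Fas, and those that bind TRAF adaptors directly, such as TNFR2 (Tnfrsf1b), CD40 and 4-1BB (Tnfrsf9). Receptor binding activates NF-kB and MAP kinases or, through caspase 8 and RIP kinases, cell death, and in macrophages LPS is the classical inducer of Tnf.

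Promoters of 6 members are shown because members moved together with LPS and NF-kB is a known regulator of several of them. RefSeq promoter entries (assembly GRCm38.p6) were found for 8 of the 10 members. Each sequence is the 250 bases before the gene start, 5′ to 3′ on the gene's own strand, and capitals mark every match on either strand to GGG, any 5 bases and CC, a 10-base form of the NF-kB consensus. Tnf lies at chr17:35202008-35202257 on the minus strand, Tnfrsf1b at chr4:145246871-145247120 on the minus strand and Fas at chr19:34290409-34290658 on the plus strand. Tnfrsf1a lies at chr6:125349473-125349722 on the plus strand, Tnfsf15 at chr4:63745060-63745309 on the minus strand and Traf1 at chr2:34961773-34962022 on the minus strand.
Tnf: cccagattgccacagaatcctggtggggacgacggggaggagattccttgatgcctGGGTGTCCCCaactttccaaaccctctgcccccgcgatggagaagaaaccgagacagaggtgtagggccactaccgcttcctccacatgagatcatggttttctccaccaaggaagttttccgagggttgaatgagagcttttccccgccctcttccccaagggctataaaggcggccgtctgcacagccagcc
Tnfrsf1b: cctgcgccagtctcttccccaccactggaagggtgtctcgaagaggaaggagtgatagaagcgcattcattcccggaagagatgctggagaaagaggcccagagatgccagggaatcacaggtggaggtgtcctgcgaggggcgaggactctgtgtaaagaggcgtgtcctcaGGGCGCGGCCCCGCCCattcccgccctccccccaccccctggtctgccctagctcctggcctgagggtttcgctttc
Fas: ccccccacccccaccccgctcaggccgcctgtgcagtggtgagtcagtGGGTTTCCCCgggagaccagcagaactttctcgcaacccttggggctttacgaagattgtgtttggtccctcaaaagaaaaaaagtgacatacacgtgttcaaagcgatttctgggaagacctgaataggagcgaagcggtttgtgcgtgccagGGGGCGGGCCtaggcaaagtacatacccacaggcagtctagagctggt
Tnfrsf1a: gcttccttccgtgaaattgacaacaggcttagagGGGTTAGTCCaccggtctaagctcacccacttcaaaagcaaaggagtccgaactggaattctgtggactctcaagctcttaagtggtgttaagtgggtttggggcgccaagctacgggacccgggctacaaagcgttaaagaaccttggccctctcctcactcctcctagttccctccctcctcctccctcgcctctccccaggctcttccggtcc
Tnfsf15: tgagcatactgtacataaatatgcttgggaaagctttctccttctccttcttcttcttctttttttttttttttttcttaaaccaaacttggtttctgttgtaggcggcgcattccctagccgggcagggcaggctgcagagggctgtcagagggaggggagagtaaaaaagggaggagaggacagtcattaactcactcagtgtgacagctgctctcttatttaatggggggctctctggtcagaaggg
Traf1: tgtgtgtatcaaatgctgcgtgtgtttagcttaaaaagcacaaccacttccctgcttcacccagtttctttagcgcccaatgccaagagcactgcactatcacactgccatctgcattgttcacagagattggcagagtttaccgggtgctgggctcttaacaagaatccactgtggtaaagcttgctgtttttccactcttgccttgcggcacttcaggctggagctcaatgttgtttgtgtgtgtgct

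The set puts LPS-induced members with a match (Tnf, Tnfrsf1b, Fas) beside the member with the smallest LPS difference (Tnfrsf1a) and induced members without a match (Tnfsf15, Traf1). The Tnf match began 194 bases before the start and the Tnfrsf1a match 216 bases before it. Tnfrsf1b had 3 overlapping matches, which began 77, 76 and 71 bases before the start, and Fas had 2, at 202 and 48 bases. One of the Tnfrsf9 promoters also held overlapping matches, and Tnfsf10 held none in this window. Counted by promoter, 5 of the 9 member promoters (55.6%) had a match, against 45.8% of the 32851 promoters of the table. A match is a description of these letters only.

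The labelled targets were measured first. In BMDMs with vehicle, Ctbp1 stood at 138 ± 7.12 TPM with control siRNA and 57.3 ± 1.96 TPM with Ctbp1 siRNA, and Ctbp2 at 52.6 ± 1.41 TPM with control siRNA and 18.2 ± 1.95 TPM with Ctbp2 siRNA (SD, n = 3). With LPS the log2 difference from control was -1.25 for Ctbp1 under its siRNA (adjusted p = 2.8e-08, limma) and -1.59 for Ctbp2 under its own (adjusted p = 6.67e-08, limma). In J774.1, Ctbp1 was at 161 ± 3.81 TPM in wildtype and 19.9 ± 3.30 TPM in the double knockout (-2.96, adjusted p = 1.64e-06, limma). Ctbp2 mRNA was at 78.2 ± 3.52 against 63.1 ± 1.38 TPM (-0.31, adjusted p = 0.00121, limma), a moderate difference that does not show how much protein remained. Of the macrophage markers 8 of 8 had a mean of at least 1 TPM in BMDMs and 7 of 8 in J774.1, where Mertk did not. In BMDMs their sum was 13828 to 14391 TPM with control siRNA and vehicle and 12458 to 13044 TPM with Ctbp1 siRNA and vehicle, and with LPS 15135 to 15783 and 12501 to 14578 TPM, so that Ctbp1 siRNA lay below control without overlap in both. With Ctbp2 siRNA it was 13432 to 14581 TPM in vehicle and 13904 to 15528 TPM in LPS, overlapping control. The J774.1 sum was 3061 to 3124 TPM in wildtype and 2392 to 2650 TPM in double knockout J774.1. Of the neutrophil markers 4 of 7 (S100a8, S100a9, Camp and Ngp) passed 1 TPM in BMDMs, and the list summed to 59.8 to 119 TPM in vehicle and 74.4 to 166 TPM in LPS libraries. Of 4 stromal markers 1, Pdgfrb, passed 1 TPM in BMDMs, and the list summed to at most 0.152 TPM with vehicle and 4.11 to 7.59 TPM with LPS. Of 5 T cell markers 1, Lck, passed 1 TPM in J774.1, and the list summed to 8.05 to 11.1 TPM there. The part of these markers in the results below was not tested. In bulk RNA, fewer cells of a type and less RNA per cell cannot be told apart.

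LPS moved nearly the whole set in BMDMs. With control siRNA, the ligands Tnf and Tnfsf9, the receptors Tnfrsf1b, Cd40 and Fas, and the adaptor Traf1 rose, as did the scarce ligands Tnfsf10 and Tnfsf15. Tnfrsf1a was slightly lower in TPM, a direction that reversed with another scaling. The test was limma on log2(TPM + 1), fitted to the 12146 genes whose level averaged 1 TPM or more across the 18 libraries, with p-values adjusted over all of them and a call at an adjusted p under 0.05. Differences are on this log2(TPM + 1) scale, which understates the change of low genes, and are given ± SE. By this rule 8 of the 9 tested members were called higher, where 18.6% of all genes tested were called higher, and 1 was called lower, where 53.6% were. The members were chosen with earlier results of these data known, which bears on this and the later contrasts with all genes. Tnfsf10 and Tnfsf15 passed the filter only through their LPS groups, so their induction bears on their being tested. Tnfrsf9 did not pass the filter in BMDMs.

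Among the ligands, Tnf, the prototype cytokine of the family, was measured at 37.5, 36.3 and 37.3 TPM with vehicle and at 4782, 4982 and 3179 TPM with LPS in control siRNA cells. The groups were far apart, and LPS replicate 4 was the lowest of its group. The ratio of the means was 116 (log2 difference 6.80 ± 0.11, adjusted p = 8.65e-17, limma). Tnfsf9, the 4-1BB ligand that costimulates T cells, was at 4.87, 4.44 and 4.18 TPM with vehicle and 145, 136 and 96.7 TPM with LPS. Replicate 4 was again lowest under LPS, and the groups did not overlap (log2 difference 4.51 ± 0.12, adjusted p = 1.5e-14, limma).

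Tnfsf15, which encodes TL1A, was near the bottom of the range with vehicle, at 0.327, 0.195 and 0.142 TPM, and reached 17.5, 16.9 and 6.97 TPM with LPS. Its groups did not overlap, with LPS replicate 4 at 40.4% of the mean of replicates 1 and 3 (log2 difference 3.50 ± 0.25, adjusted p = 2.55e-09, limma). Tnfsf10, which encodes the death ligand TRAIL, was at 0.461, 0.289 and 0.506 TPM with vehicle and 2.22, 2.82 and 1.98 TPM with LPS, without overlap (log2 difference 1.23 ± 0.13, adjusted p = 2.83e-07, limma). Its LPS level was the lowest of the 4 ligands.

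Among the receptors, Cd40, the receptor for the T cell ligand CD40L, stood at 4.65, 5.65 and 7.14 TPM with vehicle and 911, 932 and 601 TPM with LPS. The ratio of the means, 140, was the highest among the 10 members in control siRNA cells (log2 difference 6.89 ± 0.16, adjusted p = 8.16e-15, limma). Fas, the death receptor for Fas ligand, was at 5.75, 5.46 and 6.73 TPM with vehicle and 75.9, 77.7 and 70.7 TPM with LPS, so that it rose with no overlap (log2 difference 3.44 ± 0.10, adjusted p = 3.61e-14, limma). Tnfrsf9, the 4-1BB receptor, was listed at 0.0847, 0 and 0.120 TPM with vehicle and 0.986, 0.510 and 0.679 TPM with LPS. With no filter on low values its log2 difference was 0.68 (adjusted p = 0.000136, limma), at levels under 1 TPM in every library.

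The receptors of TNF itself behaved differently from each other. Tnfrsf1b, the inducible receptor of haematopoietic cells, was at 297, 278 and 290 TPM with vehicle and 1304, 1302 and 1232 TPM with LPS (log2 difference 2.14 ± 0.05, adjusted p = 2.27e-15, limma). Tnfrsf1a, the broadly expressed death-domain receptor, was at 151, 148 and 142 TPM with vehicle and 125, 123 and 132 TPM with LPS (log2 difference -0.21 ± 0.06, adjusted p = 0.00263, limma). Its groups did not overlap in TPM, yet its direction depended on the scaling. The median of all genes tested was -0.29 with LPS in TPM, and median-of-ratios scaling, which centres libraries on their typical gene, moved that median by 0.28. With it the log2 difference of Tnfrsf1a was 0.10 (adjusted p = 0.119, limma). The authors' deposited table lists 0.12 (adjusted p = 0.0393). With Ctbp1 and Ctbp2 siRNA its difference went likewise from -0.22 to 0.06 (adjusted p = 0.339, limma) and from -0.17 to 0.17 (adjusted p = 0.00993, limma). The authors' deposited table lists 0.08 with Ctbp1 siRNA (adjusted p = 0.185) and 0.19 with Ctbp2 siRNA (adjusted p = 0.000448).

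The ratio of these receptors within a library does not depend on such scaling. Tnfrsf1b over Tnfrsf1a was 1.97 ± 0.0757 with vehicle and 10.1 ± 0.683 with LPS in control siRNA cells (SD, n = 3). It was 2.01 ± 0.133 and 10.6 ± 0.779 with Ctbp1 siRNA, and 2.39 ± 0.173 and 10.8 ± 0.779 with Ctbp2 siRNA. All LPS libraries lay above all vehicle libraries in each of the 3 backgrounds, with an exact two-sided permutation p of 0.1, the smallest that 3 against 3 libraries allow. This ratio was added after the values had been seen. Traf1, a TRAF adaptor and known NF-kB target, was at 23.9, 19.8 and 15.7 TPM with vehicle and 409, 446 and 365 TPM with LPS, so that it rose without overlap (log2 difference 4.31 ± 0.15, adjusted p = 6.02e-13, limma).

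**Figure D1:**
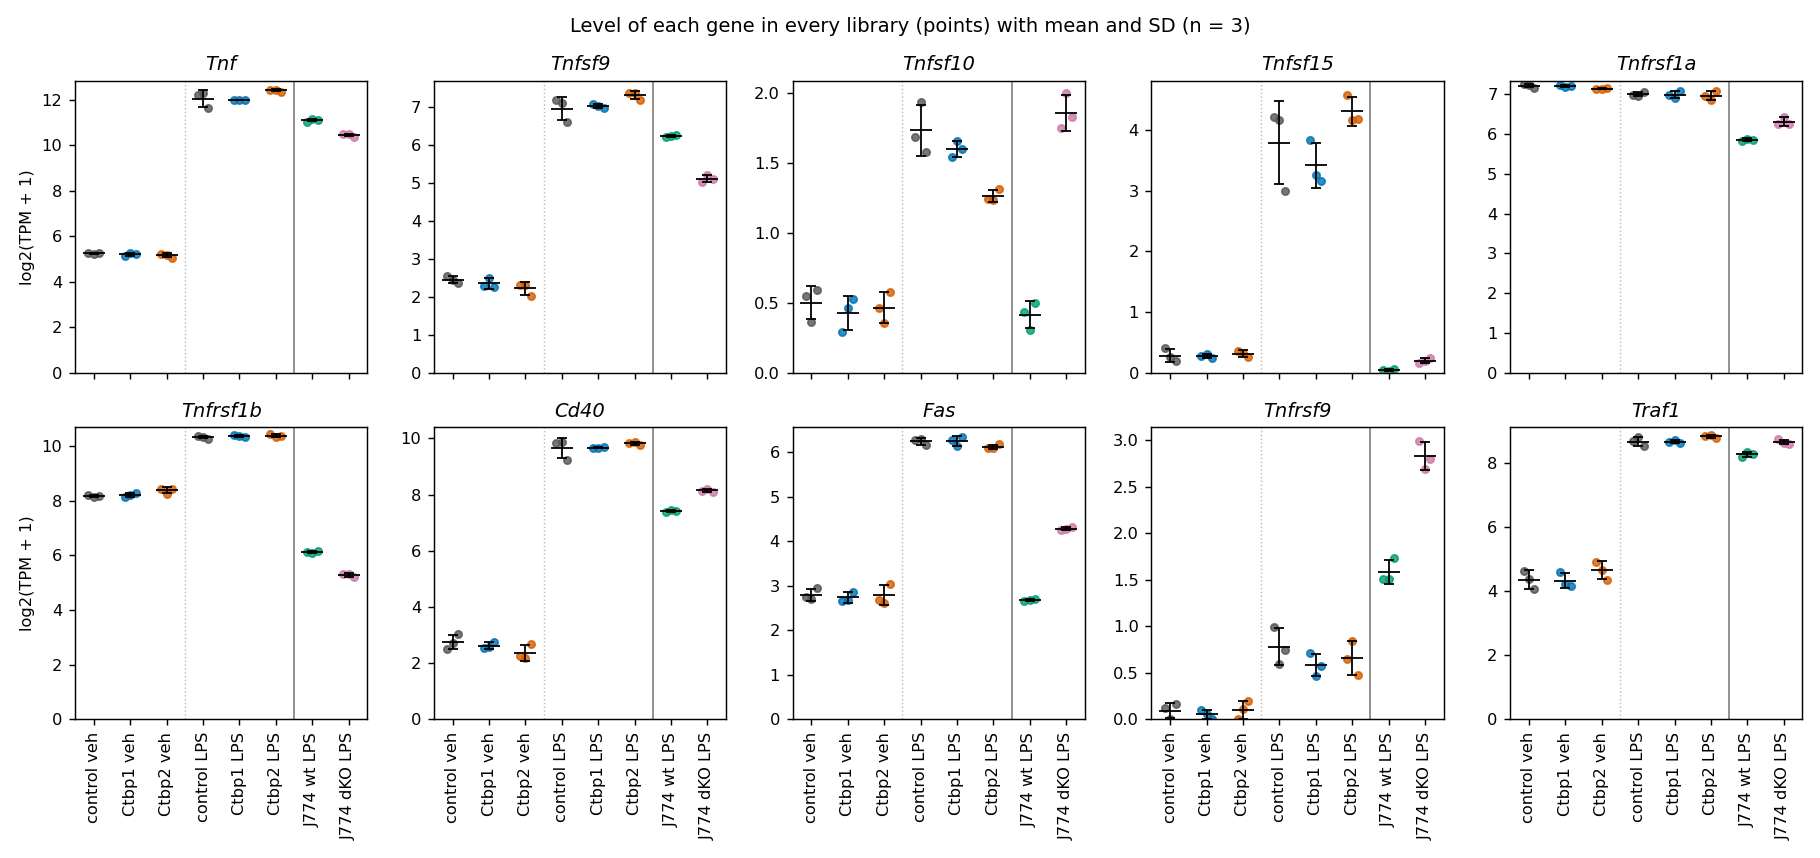
Level of each of the 10 genes as log2(TPM + 1) on the vertical axis (each panel has its own range, starting at 0) in the 8 groups on the horizontal axis; points are single libraries, black marks the mean and SD of 3. LPS groups stand above vehicle groups in every BMDM panel except Tnfrsf1a, which is lower in TPM but not with median-of-ratios scaling; the BMDM and J774.1 tables were normalized separately.

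With Ctbp1 or Ctbp2 siRNA the same 8 members were called higher with LPS and Tnfrsf1a lower. Of all genes tested, 19.4% were called higher and 51.1% lower with Ctbp1 siRNA, and 18.6% and 55.3% with Ctbp2 siRNA. The median log2 difference over the tested members was 3.50, 3.52 and 3.98 in control, Ctbp1 and Ctbp2 siRNA cells, beside -0.29, -0.26 and -0.32 over all genes tested. Each member median is the value of a single gene, Tnfsf15 in control and Ctbp2 siRNA cells and Fas in Ctbp1 siRNA cells. Tnfsf15 passed the filter only through its LPS groups, so these medians do not show a larger response of the whole set with Ctbp2 siRNA. With Ctbp1 siRNA, Tnf was at 34.2, 37.0 and 36.6 TPM with vehicle and 4041, 4081 and 4042 TPM with LPS. With Ctbp2 siRNA it was at 36.8, 35.6 and 32.4 TPM with vehicle and 5498, 5520 and 5234 TPM with LPS. Its log2 difference with LPS was 6.78 and 7.24 in these backgrounds, and that of Cd40 7.04 and 7.46.

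**Figure D2:**
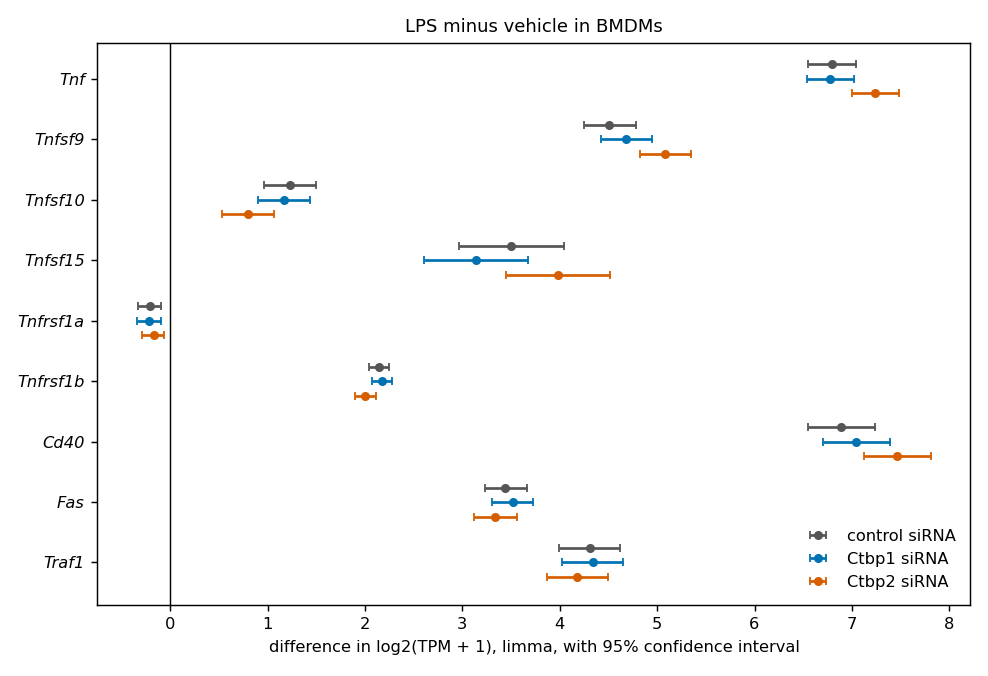
LPS minus vehicle as the difference in log2(TPM + 1) on the horizontal axis for the 9 tested members, with points for control, Ctbp1 and Ctbp2 siRNA and bars for the 95% confidence interval of limma (n = 3 against 3). Tnf and Cd40 lie between 6.78 and 7.46, and Tnfrsf1a between -0.22 and -0.17, a sign that reversed with median-of-ratios scaling.

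Whether an siRNA altered the size of the response was tested by its interaction with LPS. No member was called for Ctbp1 siRNA, where 0% of all genes tested were called. There 0 members had an unadjusted p under 0.05 by limma, beside 6.27% of all genes. None was called for Ctbp2 siRNA, where 0.0329% of all genes were called and 4 members had an unadjusted p under 0.05 by limma, beside 7.57% of all genes. For Ctbp2 siRNA the interaction was 0.57 for Tnfsf9 (95% confidence interval 0.20 to 0.94, adjusted p = 0.362) and 0.44 for Tnf (0.10 to 0.78, adjusted p = 0.497). It was 0.57 for Cd40 (0.08 to 1.06, adjusted p = 0.555) and -0.43 for Tnfsf10 (-0.82 to -0.05, adjusted p = 0.585). Without control siRNA LPS replicate 4 the interaction was 0.23 for Tnf (adjusted p = 0.258, limma), 0.36 for Cd40 (adjusted p = 0.71), 0.39 for Tnfsf9 (adjusted p = 0.418) and -0.51 for Tnfsf10 (adjusted p = 0.508). The intervals of the TNF receptors were the narrowest, at -0.13 to 0.20 for Tnfrsf1a and -0.29 to 0.01 for Tnfrsf1b.

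In vehicle-treated cells no member was called for either siRNA. For Ctbp1 siRNA 0 members had an unadjusted p under 0.05 by limma, beside 8.92% of all genes, and limma called 0.107% of all genes. No member passed in the authors' deposited table, where Tnfsf10 and Tnfrsf9 had no adjusted p. For Ctbp2 siRNA 2 members had an unadjusted p under 0.05 by limma, beside 11.5% of all genes, and limma called 0.568% of all genes. Of the members, 1 passed in the authors' deposited table, where Tnfsf10 and Tnfrsf9 again had no adjusted p. The share of all genes that passed in that table was not worked out, for this or the other comparisons. Tnfrsf1b was at 346, 304 and 346 TPM with Ctbp2 siRNA, above all 3 control libraries, with a log2 difference of 0.20 (95% confidence interval 0.09 to 0.31, adjusted p = 0.107, limma). Without Ctbp2 siRNA vehicle replicate 3 it was 0.26 (adjusted p = 0.044, limma), and the authors' deposited table lists 0.25 (adjusted p = 0.0345). Cd40 was at 3.72, 3.52 and 5.38 TPM with Ctbp2 siRNA, overlapping its controls (-0.39, -0.74 to -0.04, adjusted p = 0.361, limma).

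With LPS, Ctbp2 siRNA cells had the highest mean Tnf, Tnfsf9, Tnfsf15, Tnfrsf1b, Cd40 and Traf1 of the 3 backgrounds. They had the lowest mean Tnfsf10, Fas and Tnfrsf1a, and their mean Tnfrsf9 lay in between. However, no member passed the test across all genes. Beside 0 of 9 members, 1.94% of all genes tested were called for Ctbp2 siRNA against control. By limma 3 members had an unadjusted p under 0.05, beside 17.5% of all genes, and 0 passed in the authors' deposited table. Tnf, at 5498, 5520 and 5234 TPM, was above all 3 control libraries (log2 difference 0.36, 95% confidence interval 0.11 to 0.60, adjusted p = 0.125, limma). The authors' deposited table lists 0.39 (adjusted p = 0.0675).

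Tnfsf9 was at 164, 166 and 145 TPM with Ctbp2 siRNA and LPS, so that its lowest library lay within the control range (0.34, 0.08 to 0.61, adjusted p = 0.165, limma). With the replicate number as a block its adjusted p was 0.0468, and it was the 1 member called that way. Tnfsf10 was at 1.37, 1.36 and 1.49 TPM, below all controls (-0.47, -0.74 to -0.19, adjusted p = 0.0752, limma). Its adjusted p was 0.0235 when limma's variance trend and robust estimation were turned off. Tnfsf15 was at 22.8, 16.9 and 17.0 TPM, overlapping its controls (0.51, -0.02 to 1.04, adjusted p = 0.306, limma).

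For the TNF receptors the log2 difference with Ctbp2 siRNA and LPS was -0.04 for Tnfrsf1a (-0.16 to 0.08) and 0.06 for Tnfrsf1b (-0.05 to 0.17). Fas stood at 67.0, 67.8 and 71.5 TPM, Cd40 at 917, 930 and 871 TPM and Traf1 at 455, 467 and 440 TPM, each with a confidence interval that included 0. For Ctbp1 siRNA against control in LPS limma called no member, beside 0.0576% of all genes tested. By limma 0 members had an unadjusted p under 0.05, beside 7.34% of all genes, and 0 passed in the authors' deposited table. The log2 difference of Tnf with Ctbp1 siRNA and LPS was -0.06 (-0.30 to 0.18) and that of Tnfsf15 -0.38 (-0.91 to 0.16). Both siRNA comparisons share the same 3 control libraries.

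These values moved with 1 control library. Control siRNA LPS replicate 4 had the lowest level of all 9 BMDM LPS libraries for Tnf, Tnfsf9, Tnfrsf1b, Cd40, Tnfsf15 and Traf1. It was at 65.1% of the mean of control replicates 1 and 3 for Tnf, 68.6% for Tnfsf9 and 65.2% for Cd40, but at 106% for Tnfrsf1a and 92.1% for Fas. Without it, the log2 difference of Tnf was 0.15 for Ctbp2 siRNA (adjusted p = 0.173, limma) and -0.27 for Ctbp1 siRNA (adjusted p = 0.0223, limma). Tnf was thus called lower with Ctbp1 siRNA when that library was left out. Tnfsf9 had a difference of 0.17 for Ctbp2 siRNA without it (adjusted p = 0.52, limma). Tnfsf15 was then at 0.11 for Ctbp2 siRNA (adjusted p = 0.842) and -0.77 for Ctbp1 siRNA (adjusted p = 0.0558). Tnfsf10 had a difference of -0.55 for Ctbp2 siRNA (adjusted p = 0.0814, limma). Leaving out control replicate 3 in its place gave Tnf 0.47 for Ctbp2 siRNA (adjusted p = 0.041, limma).

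**Figure D3:**
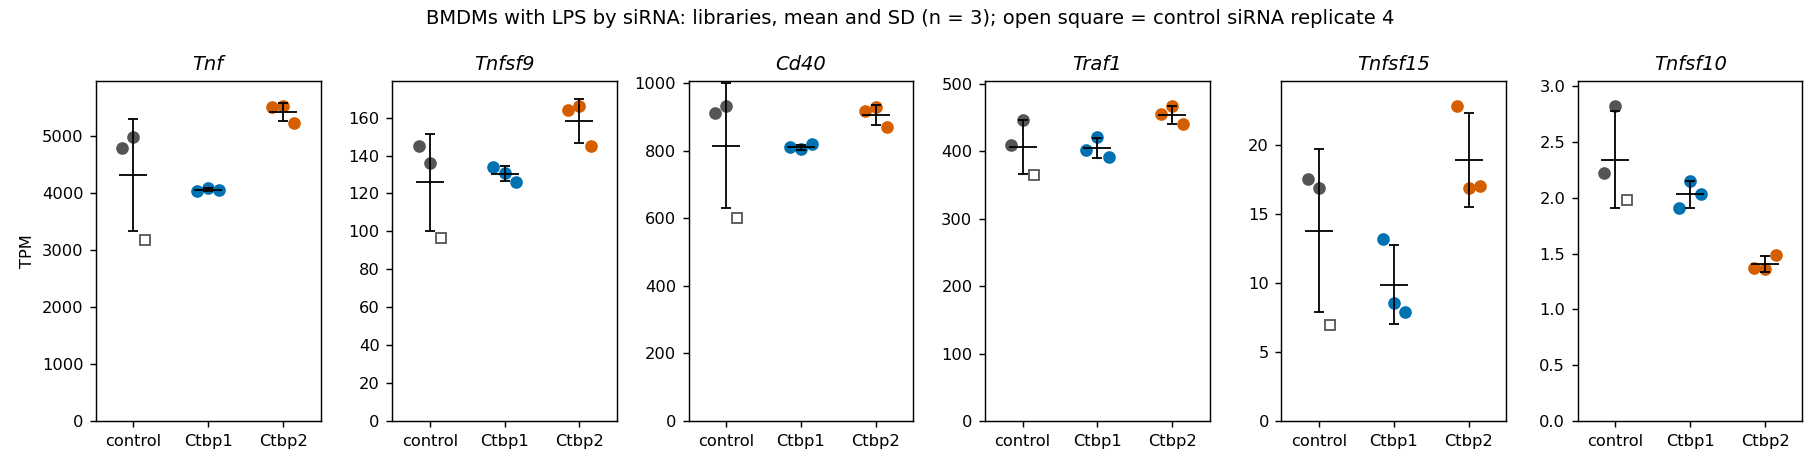
TPM on the vertical axis (linear, from 0) of 6 members in the 9 BMDM libraries with LPS, by siRNA on the horizontal axis; points are libraries, black marks the mean and SD of 3, and the open square is control siRNA replicate 4. For Tnf that library reads 3179 TPM, below the other LPS libraries, and for Tnfsf10 the 3 Ctbp2 siRNA libraries, at 1.36 to 1.49 TPM, are the lowest.

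Setting the siRNAs against each other leaves the control group out of the contrast; this comparison was added after the values had been seen. In LPS, Tnf was at 5234 to 5520 TPM with Ctbp2 siRNA and 4041 to 4081 TPM with Ctbp1 siRNA, without overlap (log2 difference 0.42, 95% confidence interval 0.18 to 0.66, adjusted p = 0.0543, limma). Tnfsf15 was at 16.9 to 22.8 TPM against 7.90 to 13.2 TPM (0.89, 0.36 to 1.42, adjusted p = 0.059, limma). Tnfsf10, in the opposite direction, was at 1.36 to 1.49 TPM against 1.91 to 2.15 TPM (-0.33, -0.61 to -0.06, adjusted p = 0.146, limma). No member was called, beside 3.59% of all genes tested, while 4 had an unadjusted p under 0.05, beside 22.2% of all genes tested, and the ranges of 6 of the 10 did not overlap, beside 25.7% of all genes tested. A fit to only these 6 libraries called 52 genes in all. It gave Tnf an adjusted p of 0.00506 (limma) and called no other member. Control siRNA LPS replicate 4 enters this contrast only through the shared spread, and without it the adjusted p was 8.86e-05 for Tnf and 0.00422 for Tnfsf15 (limma). Over the 18 fits that left out 1 library, 117 to 1050 genes in all were called. In vehicle no member was called, beside 0.617% of all genes, and 2 had an unadjusted p under 0.05 by limma, beside 9.89% of all genes.

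In J774.1 with LPS, the double knockout had less Tnf, Tnfsf9 and Tnfrsf1b and more of the 6 other tested members than wildtype. The fit covered 11818 genes, of which 23% were called higher and 13.2% lower in the double knockout. Of 9 tested members 6 were called higher and 3 lower, and all 9 were called in each of the 6 fits that left out 1 library. The median over the tested members was 0.46, beside 0.05 over all genes. Tnfsf10 passed the filter only through its level in the double knockout, and Tnfsf15 did not pass it.

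Tnf fell from 2100, 2249 and 2231 TPM in wildtype to 1436, 1417 and 1326 TPM in the double knockout. The groups did not overlap (log2 difference -0.65 ± 0.04, adjusted p = 1.08e-05, limma). Tnfsf9 fell from 73.0, 74.1 and 75.9 TPM to 31.7, 36.0 and 33.2 TPM (log2 difference -1.12 ± 0.05, adjusted p = 3.36e-06, limma). In BMDMs with Ctbp2 siRNA and LPS the differences of both ligands were above 0 and not called. The other ligands were scarce in this line. Tnfsf10 rose from 0.355, 0.240 and 0.413 TPM to 2.36, 3.00 and 2.55 TPM (log2 difference 1.44 ± 0.14, adjusted p = 0.000173, limma). Tnfsf15 was at 0.0188 to 0.0452 TPM in wildtype and 0.116 to 0.184 TPM in the double knockout, and with no filter its difference was 0.15 (adjusted p = 0.0483, limma).

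Of the receptors, Fas had the largest difference between the genotypes. It rose from 5.31, 5.43 and 5.51 TPM to 18, 18.4 and 19.1 TPM, a ratio of the means of 3.42 (log2 difference 1.60 ± 0.06, adjusted p = 1.19e-06, limma). Tnfrsf9 rose from 1.85, 1.84 and 2.32 TPM to 6.93, 5.46 and 5.93 TPM (log2 difference 1.24 ± 0.12, adjusted p = 0.000163, limma). It was above 1 TPM in all 6 J774.1 libraries and below 1 TPM in all 18 BMDM libraries. Cd40 rose from 166, 176 and 170 TPM to 281, 295 and 275 TPM, again without overlap (log2 difference 0.73 ± 0.04, adjusted p = 4.41e-06, limma).

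The receptors of TNF moved in opposite directions in J774.1. Tnfrsf1a rose from 55.4, 58.0 and 56.8 TPM to 74.8, 85.3 and 75.2 TPM (log2 difference 0.46 ± 0.06, adjusted p = 0.000607, limma). Tnfrsf1b fell from 67.8, 66.7 and 70.8 TPM to 38.6, 38.8 and 35.6 TPM (log2 difference -0.84 ± 0.05, adjusted p = 9.12e-06, limma). Their ratio, Tnfrsf1b over Tnfrsf1a, was 1.21 ± 0.0505 in wildtype and 0.481 ± 0.0314 in the double knockout, with no overlap (SD, n = 3, exact two-sided permutation p = 0.1, the smallest possible with 3 against 3). Tnfrsf1b exceeded Tnfrsf1a in wildtype and was below it in the double knockout. Traf1 rose from 292, 322 and 312 TPM to 426, 396 and 388 TPM (log2 difference 0.38 ± 0.05, adjusted p = 0.00063, limma). All 9 calls had the same direction with median-of-ratios scaling.

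**Figure D4:**
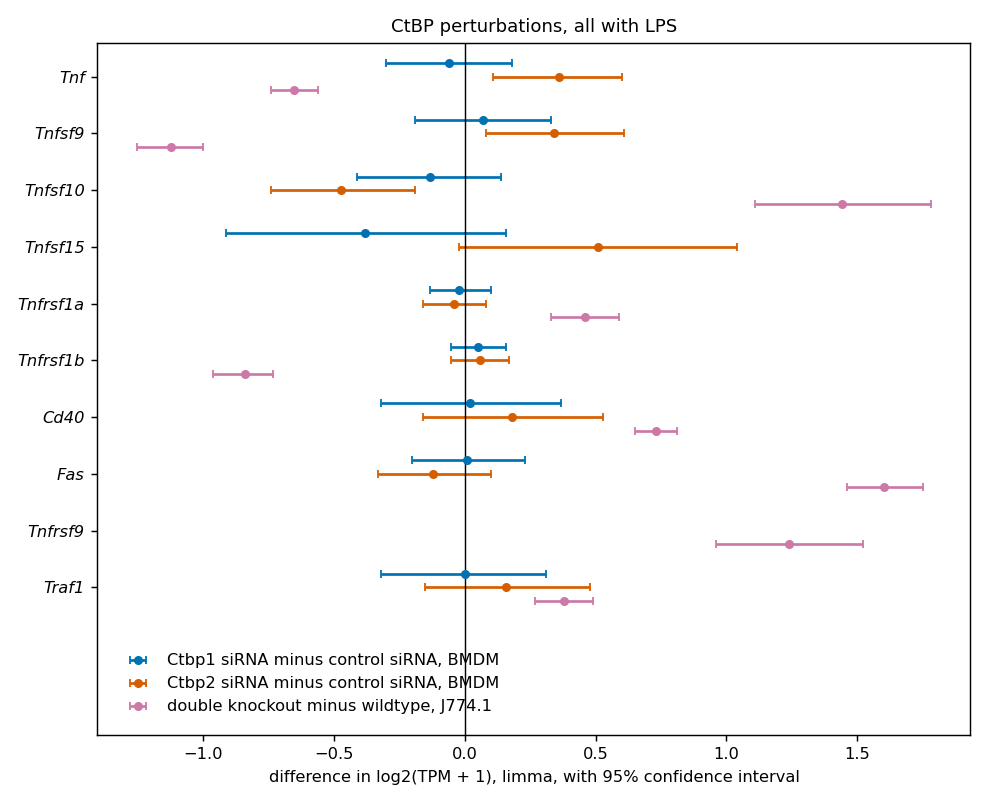
Difference in log2(TPM + 1) on the horizontal axis for the 10 members with LPS, for Ctbp1 siRNA and Ctbp2 siRNA against control siRNA in BMDMs and for the double knockout against wildtype in J774.1; points are limma estimates with 95% confidence intervals, and genes below the filter have no point. The J774.1 points run from -1.12 for Tnfsf9 to 1.60 for Fas, all called, and no BMDM point was called.

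**Figure D5:**
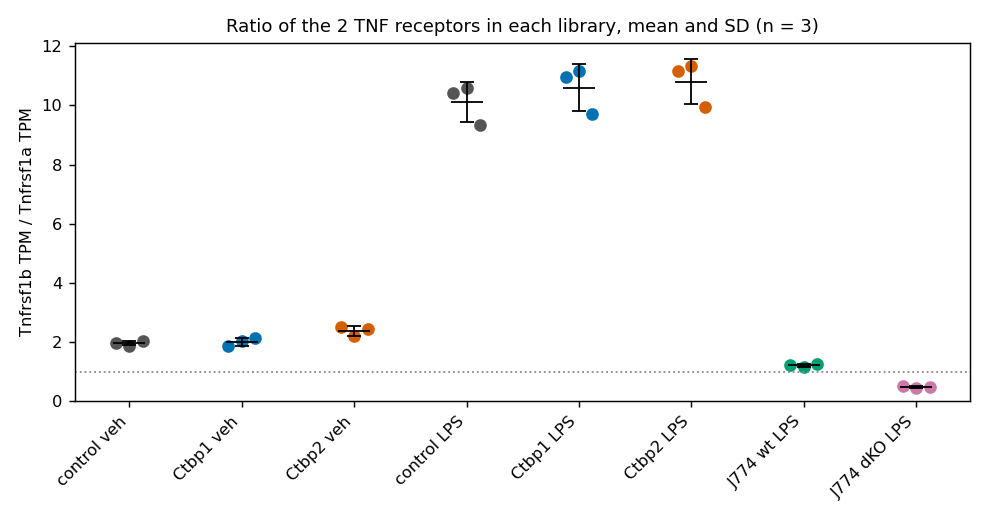
Ratio of Tnfrsf1b to Tnfrsf1a TPM on the vertical axis (from 0, dotted line at 1) in the 8 groups; points are libraries, black marks the mean and SD of 3. The mean ratio is 1.97 to 2.39 in vehicle-treated BMDMs, 10.1 to 10.8 with LPS, 1.21 in wildtype J774.1 and 0.481 in the double knockout.

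Ordered by mean level in LPS-treated control BMDMs, Tnf (4314 TPM) was followed by Tnfrsf1b (1279), Cd40 (814), Traf1 (407), Tnfrsf1a (127), Tnfsf9 (126), Fas (74.8), Tnfsf15 (13.8), Tnfsf10 (2.34) and Tnfrsf9 (0.725). Tnfrsf1a and Tnfsf9 did not differ beyond the spread of their libraries. In wildtype J774.1 with LPS the order was Tnf (2193 TPM), Traf1 (309), Cd40 (171), Tnfsf9 (74.4), Tnfrsf1b (68.4), Tnfrsf1a (56.7), Fas (5.42), Tnfrsf9 (2.01), Tnfsf10 (0.336) and Tnfsf15 (0.0339). The tables were normalized separately, and their levels were not tested against each other.

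Over the 18 BMDM libraries, the profiles of Tnfsf9, Cd40, Tnfrsf1b, Fas and Traf1 had Pearson correlations of 0.996 to 0.999 with Tnf on the log2(TPM + 1) scale, and with median-of-ratios scaling the values were again 0.996 to 0.999. Tnfrsf1a had -0.858 in TPM and 0.691 with that scaling, so the sign of its correlation depended on the scaling. Among the 7584 genes that averaged 10 TPM or more, the profiles most like Tnf were those of Cxcl3, a neutrophil-attracting chemokine (r = 0.9997), Mir155hg, the host transcript of miR-155 (0.9997), Sdc4, a heparan sulfate proteoglycan (0.9997), Nfkbia, the NF-kB inhibitor (0.9996), and Socs3, an inhibitor of cytokine signalling (0.9995). With median-of-ratios scaling the same 5 genes were the most like Tnf. For Tnfrsf1a the genes of most similar profile also depended on the scaling. In TPM they were Gak (0.9502), Usp8 (0.9484), Dennd4b (0.9484), Mon2 (0.9443) and Ubl7 (0.939), and with that scaling Rexo1 (0.8989), Kif2a (0.8958), Zswim8 (0.8913), Gak (0.8836) and Gclc (0.8829), so that 1 of 5 was shared, and Dennd4b was at -0.2043. All of these points share the split between vehicle and LPS libraries.

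Other genes of the pathway were read from 4 lists. Of 14 other TNF superfamily ligands 4 were tested in BMDMs, and with LPS in control siRNA cells 1 rose and 3 fell. Over all genes tested there, 18.6% were called higher and 53.6% lower. Tnfsf12, which encodes TWEAK, fell from 206 to 88.0 TPM (log2 difference -1.22, adjusted p = 6.91e-11, limma), and Tnfsf13, which encodes APRIL, from 17.2 to 6.37 TPM (-1.30, adjusted p = 7.06e-07). Of 23 other receptors 13 were tested, of which 3 rose and 8 fell (3 and 5 with median-of-ratios scaling), beside the same 18.6% and 53.6% of all genes. Tnfrsf14, which encodes HVEM, rose from 25.1 to 98.3 TPM (1.93, adjusted p = 9.33e-12). Tnfrsf11a, which encodes RANK, fell from 43.7 to 21.3 TPM (-1.0, adjusted p = 1.98e-10), and Tnfrsf21, death receptor 6, from 18.4 to 4.21 TPM (-1.91, adjusted p = 2.82e-11). The median log2 difference was -1.05 over the tested ligands and -0.44 over the tested receptors, beside -0.29 over all genes.

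Of 30 genes of TNF receptor signalling 29 were tested, and with LPS 16 rose and 9 fell (20 and 6 with median-of-ratios scaling), with a median of 0.25. Of all genes tested, 18.6% were called higher and 53.6% lower. The largest increase of the list was in Tnfaip3, which encodes the ubiquitin-editing inhibitor A20 (17.6 to 406 TPM, log2 difference 4.44, adjusted p = 1.19e-15, limma). Its partner Tnip1 rose from 70.5 to 520 TPM (2.86, adjusted p = 5.28e-17). Cflar, an inhibitor of caspase 8 activation, rose from 59.9 to 412 TPM (2.76, adjusted p = 5.36e-16), and Birc3, which encodes cIAP2, from 47.9 to 260 TPM (2.42, adjusted p = 1.61e-13). The largest decrease was in Map3k14, which encodes the kinase NIK (16.8 to 5.55 TPM, -1.46, adjusted p = 2.63e-09). Tradd, the adaptor of TNFR1, fell from 24.0 to 15.7 TPM (-0.58) and Casp8, the apoptosis-initiating caspase, from 63.8 to 45.8 TPM (-0.47). With median-of-ratios scaling these were -0.28 and -0.17 and still called, whereas Rbck1, of the linear ubiquitin ligase complex, at -0.44 in TPM, was at -0.13 and not called.

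The list of TNF shedding and mRNA decay had 11 of 12 genes tested, of which 6 rose and 4 fell with LPS (7 and 3 with median-of-ratios scaling), with a median of 0.38. Adam17, the protease that sheds TNF, rose from 119 to 307 TPM (1.36, adjusted p = 8.88e-13, limma), and Rhbdf2, which encodes its trafficking partner iRhom2, from 33.6 to 106 TPM (1.63, adjusted p = 2.44e-15). Among genes of mRNA decay, Zfp36, which encodes tristetraprolin, rose from 83.8 to 298 TPM (1.82, adjusted p = 6.85e-14) and Zc3h12a, which encodes Regnase-1, from 25.3 to 151 TPM (2.53, adjusted p = 5.78e-15). The Zfp36 paralogs fell, Zfp36l1 from 55.1 to 10.0 TPM (-2.39) and Zfp36l2 from 229 to 39.6 TPM (-2.52). Across all genes tested, 2258 (18.6%) were called higher and 6514 (53.6%) lower in TPM, against 4048 and 3986 with median-of-ratios scaling.

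For the siRNAs, 57 genes of the 4 lists were tested. None was called by limma with Ctbp1 siRNA in vehicle, beside 0.107% of all genes, or with Ctbp2 siRNA in vehicle, beside 0.568%. With Ctbp1 siRNA in LPS none was called either, beside 0.0576% of all genes. In these comparisons 3, 3 and 4 of the 57 had an unadjusted p under 0.05 by limma, beside 8.92%, 11.5% and 7.34% of all genes. Ctbp2 siRNA in LPS gave 2 calls, beside 1.94% of all genes. There 15 of the 57 had an unadjusted p under 0.05 by limma, beside 17.5% of all genes. Zfp36 rose from 298 to 366 TPM (log2 difference 0.29, adjusted p = 0.0145, limma) and was also called with median-of-ratios scaling, at 0.37. Casp8 fell from 45.8 to 38.9 TPM (-0.23, adjusted p = 0.0365, limma) and was not called with that scaling, at -0.16 (adjusted p = 0.135, limma). With that scaling Tnfrsf11a (0.27, adjusted p = 0.00996, limma) and Zc3h12a (0.33, adjusted p = 0.0365, limma) were called higher too, so that the 4 lists held 3 higher and 0 lower calls in place of 1 and 1. Over all genes that comparison had 63 higher and 173 lower in TPM, and 146 and 77 with median-of-ratios scaling.

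In the J774.1 double knockout, 15 of 30 signalling genes rose and 2 fell (12 and 3 with median-of-ratios scaling). Mlkl, the executor of necroptosis, rose from 11.6 to 32.7 TPM (1.42, adjusted p = 4.99e-06, limma) and Casp8 from 38.0 to 57.7 TPM (0.59, adjusted p = 3.15e-05). Tradd rose from 8.80 to 13.1 TPM (0.52) and Sharpin, of the linear ubiquitin ligase complex, from 40.6 to 55.2 TPM (0.43). Otulin, which removes linear ubiquitin, fell from 63.2 to 51.9 TPM (-0.28). Of 11 tested shedding and decay genes 2 rose and 6 fell (2 and 7 with that scaling). Zc3h12a fell from 112 to 62.1 TPM (-0.84), Rhbdf2 from 122 to 73.5 TPM (-0.72) and Zfp36l2 from 26.5 to 18.7 TPM (-0.48), while Zfp36l1 rose from 17.5 to 37.6 TPM (1.06). Of 11 tested other receptors 3 rose and 2 fell (2 and 2 with that scaling), with Tnfrsf11a rising from 13.8 to 33.0 TPM (1.20). Of 3 tested other ligands 1 rose and 2 fell, with Ltb, which encodes lymphotoxin beta, falling from 121 to 108 TPM (-0.17). Over all genes tested in J774.1, 2713 (23%) were higher and 1555 (13.2%) lower in TPM, and 2204 and 2176 with median-of-ratios scaling.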

How the data were processed

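Polyadenylated RNA of 18 BMDM and 6 J774.1 libraries was sequenced after an unstranded TruSeq mRNA preparation, per the labels' protocols, so reads of overlapping or antisense genes cannot be told apart. The submitters' processing notes name Salmon 1.9.0, FastQC, DESeq2 1.44.0 and R 4.4.1 and the builds mm39, GRCm38 and GRCm39; the BMDM columns name mm39, per the file headers, and the build of the J774.1 table is not given in the sources used here. The authors deposited TPM per library, and beside them their own log2 fold changes with p-values, raw and adjusted, and a mean normalized signal per gene, which was not used. TPM summed to 999503 to 999944 per library; since TPM keeps no depth, no counting error could be given. Identical repeated rows of a gene ID in the J774.1 table (190 IDs) were counted once.

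Here log2(TPM + 1) of genes averaging 1 TPM or more was fitted with limma 3.58.1 in R 4.3.3 (variance trend, robust estimation, 1 mean per group), all 18 BMDM libraries sharing 1 estimate of the spread and J774.1 fitted apart, with Benjamini-Hochberg adjustment over all genes. The script was tested on simulated data. Ratios of TPM used an exact permutation test. Of 12 comparisons, 10 were planned and 2 added after the values were seen. Alternatives were a pseudocount of 0.1, a minimum of 10 TPM, no minimum, median-of-ratios scaling (for the correlations between genes added after the values were seen), limma without trend and robust estimation, a fit to the compared groups only, a replicate block and leaving out each library.

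The members and lists were chosen with earlier results of these data known. The text names the 10 members, the siRNA targets, from each pathway list up to 4 called genes per direction of the largest log2 difference, averaging 10 TPM or more, and the 5 genes most like Tnf and Tnfrsf1a. Same-numbered libraries deviated together by the rule used (every correlation above 0.1) only for Ctbp2 siRNA against control in LPS, at 0.103, 0.111 and 0.191; that pairing comes from the replicate numbers in the titles and the data, since the labels do not say what a number marks.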

Additional observations from a re-analysis of the deposited data

How the results depend on the processing

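Over the alternatives that keep all libraries, 707 member differences kept their side of the threshold, 6 passed it newly and 3 reversed in direction. A reversal was counted only where either fit called the gene, so uncalled differences that changed sign count as kept. Without 1 library the counts were 1826, 9 and 0, and 1 call was lost. It was Tnfrsf1a with LPS in Ctbp2 siRNA cells without Ctbp2 siRNA LPS replicate 3 (log2 difference -0.12, adjusted p = 0.0658, limma). With median-of-ratios scaling the LPS difference of Tnfrsf1a was 0.10, 0.06 and 0.17 in control, Ctbp1 and Ctbp2 siRNA cells, and that of Ctbp1 0.14, 0.10 and 0.06, all reversed. Members called for Ctbp2 against Ctbp1 siRNA in LPS went from 0 to 1 with a minimum of 10 TPM, 1 with only the compared groups and 2 with the replicate block, and ran from 0 to 2 without 1 library. All genes called there were 436 in the main fit, 52 with only the compared groups and 821 with the block. For Ctbp2 siRNA against control in LPS the members called were 1 without trend and robust estimation, 1 with the replicate block, and 0 to 1 without 1 library. All genes called were 236 in the main fit and 414 with the block. Without 1 library the members called were also 0 to 1 for Ctbp1 siRNA in LPS and for Ctbp2 siRNA in vehicle. The cause was not tested. The block changed no other call on a member. Same-numbered libraries deviated together by the rule used in no other comparison.

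Counts over all genes, of which the main BMDM fit tested 12146, moved further. Ctbp2 siRNA in LPS went from 236 to 132 with no minimum, 4 with only the compared groups and 414 with the block (66 to 295 without 1 library). In vehicle it went from 69 to 42 without trend and robust estimation, 45 with no minimum, 22 with only the compared groups and 155 with the block (4 to 105). Ctbp1 siRNA in LPS went from 7 to 12 with a minimum of 10 TPM and 2 with only the compared groups (6 to 83, the highest without control siRNA LPS replicate 4), and in vehicle from 13 to 7 without trend and robust estimation (5 to 38). Ctbp2 against Ctbp1 siRNA went from 436 to 227, 52 and 821 in LPS (no minimum, compared groups, block; 117 to 1050) and from 75 to 49, 32 and 143 in vehicle (no trend, compared groups, block; 25 to 121). The Ctbp2 interaction went from 4 to 8, 2, 0 and 1 (minimum of 10 TPM, scaling, no minimum, compared groups; 0 to 13) and the Ctbp1 interaction from 0 to 1, 2, 3 and 2 (minimum of 10 TPM, no minimum, compared groups, pseudocount of 0.1; 0 to 4). Pathway genes called went from 2 to 1, 1 and 0 for Ctbp2 siRNA in LPS (no trend, no minimum, compared groups; 0 to 3), from 5 to 3, 0 and 8 for Ctbp2 against Ctbp1 siRNA in LPS (no minimum, compared groups, block; 1 to 9) and from 0 to 1 for Ctbp2 siRNA in vehicle (block). With 3 libraries per group and no depth in TPM, members under 1 TPM give the least firm values.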
